A study of Mus musculus with 24 samples.

Results

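The genes described here are 38 genes of the cell cycle and of DNA replication in mouse thoracic aorta. They were taken by symbol from a fixed list, with the row of highest total to be kept where a symbol repeated. All 38 were found among the 25941 genes of the count table, none on more than 1 row. The expression filter kept 37 of them, and Bub1, with 165 reads over all libraries, did not pass it. They fall into 7 roles, among them 13 replication members, 8 cyclins, Cdk1 and their regulators, and 17 members that act in mitosis.

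The study sequenced poly(A)-selected RNA of thoracic aorta from wild-type C57BL/6 males of 10 to 12 weeks, with 8 libraries in each of 3 diet groups. Celecoxib and rofecoxib are selective inhibitors of cyclooxygenase-2, the inducible enzyme of prostanoid synthesis. The chow carried celecoxib for a dose of 100 mg/kg/day, or rofecoxib for 50 mg/kg/day, or no drug in controls, and was fed for 3 weeks. All mice, controls included, received interleukin-1β at 10 ug/kg into the peritoneum 4 h before collection at zeitgeber time 11, so no library shows aorta without it. The 2 drug doses were not matched, and both drug groups are set against the same 8 control libraries. Library totals lay between 21668798 and 21700121 reads, nearly equal. The 10 smooth muscle markers listed, Acta2 and Myh11 among them, all passed the expression filter and summed to 28300 to 45400 CPM (counts scaled to a common library size) over the 24 libraries.

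A dividing cell first loads the Mcm helicase on origins of replication, then copies its DNA with the sliding clamp Pcna and a supply of deoxynucleotides, and afterwards segregates its chromosomes in mitosis. Cyclins bound to their kinases drive these steps, E2F factors switch on many replication genes before DNA synthesis, and FOXM1 and B-MYB with the MuvB complex switch on many mitotic genes later. Smooth muscle and endothelial cells of the healthy adult aorta divide rarely, and several replication proteins also serve DNA repair.

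To show the sequence that precedes these genes, 5 promoters are printed, taken only from members whose window holds letters marked below. They were picked by role: Top2a and Mki67 for mitosis, Cdk1 and Ccnb1 for the cyclins and Cdk1, and Mcm5 for replication. The windows come from RefSeq on GRCm38.p6, were read 5′ to 3′ along the gene, and were matched for 31 of the 38 members. Each sequence is the 250 bases before the start: Top2a at chr11:99024190-99024439 on the minus strand, Mki67 at chr7:135716380-135716629 on the minus strand, Cdk1 at chr10:69352913-69353162 on the minus strand, Ccnb1 at chr13:100786487-100786736 on the minus strand, and Mcm5 at chr8:75109259-75109508 on the plus strand. Capitals mark, on either strand, the core of the cell cycle homology region (TTNGAA with T or C at the N), the CCAAT box, whose letters are its name, and the E2F core (TTNNCGC with G or C at each N). The E2F and CCAAT letters overlap in Ccnb1, and 2 E2F matches run together in Mcm5.
Top2a: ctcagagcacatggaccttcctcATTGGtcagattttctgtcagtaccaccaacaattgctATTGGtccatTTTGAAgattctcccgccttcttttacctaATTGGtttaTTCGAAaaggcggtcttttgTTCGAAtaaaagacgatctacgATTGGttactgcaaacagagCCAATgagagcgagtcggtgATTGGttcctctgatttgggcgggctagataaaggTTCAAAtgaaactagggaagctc
Mki67: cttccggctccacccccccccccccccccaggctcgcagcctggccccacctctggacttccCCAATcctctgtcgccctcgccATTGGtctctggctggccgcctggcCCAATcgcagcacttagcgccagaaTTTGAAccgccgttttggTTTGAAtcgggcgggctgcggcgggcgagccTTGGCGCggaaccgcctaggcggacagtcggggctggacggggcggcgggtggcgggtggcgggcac
Cdk1: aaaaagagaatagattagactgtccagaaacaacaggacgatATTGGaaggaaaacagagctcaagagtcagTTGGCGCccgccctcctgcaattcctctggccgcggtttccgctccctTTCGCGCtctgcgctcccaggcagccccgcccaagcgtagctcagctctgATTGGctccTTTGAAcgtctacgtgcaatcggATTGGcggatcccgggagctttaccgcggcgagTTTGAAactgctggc
Ccnb1: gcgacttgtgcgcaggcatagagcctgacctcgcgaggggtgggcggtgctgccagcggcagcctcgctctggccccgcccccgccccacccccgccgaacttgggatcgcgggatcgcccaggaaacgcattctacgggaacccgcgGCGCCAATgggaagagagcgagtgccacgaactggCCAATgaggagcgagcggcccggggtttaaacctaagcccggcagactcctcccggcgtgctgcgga
Mcm5: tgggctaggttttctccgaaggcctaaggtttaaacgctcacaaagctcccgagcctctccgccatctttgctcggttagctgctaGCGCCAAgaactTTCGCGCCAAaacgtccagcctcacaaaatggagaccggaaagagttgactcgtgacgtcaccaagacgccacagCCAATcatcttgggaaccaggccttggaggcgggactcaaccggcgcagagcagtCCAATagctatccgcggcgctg
In the whole 300-base windows, which add 50 bases after the start, the homology region core was present in 11 of 14 mitosis members (78.6%) and 3 of 12 replication members (25%), against 21.7% of 27025 genes with a window. The E2F core was present in 7 of 12 replication members (58.3%) and 1 of 14 mitosis members (7.14%), against 10.9% of all those genes. That 1 mitosis member is Mki67, whose printed promoter is thus not typical of its role. The CCAAT box was in 12 of 14 mitosis members and 9 of 12 replication members, against 41.1% of all. With only the 250 bases before the start, mitosis members with the homology region core numbered 6 of 14 (42.9%) against 19.6% of all genes. These are matches of letters, not measured binding.

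Levels are given here per kilobase of merged exon. That length counts every annotated exon of a gene, 11012 bases for Rrm1 and 2400 for Pcna, so different genes compare only roughly. On this scale the 6 most abundant members were replication members, although Mcm2 ranked 20 and Cdc6 ranked 35 of 38. Mcm7, among those 6, overlaps genes with 4.71 times its reads. Pcna, the sliding clamp, led in control aorta at 22.4 CPM per kilobase, followed by the helicase subunits Mcm6 at 9.25, Mcm4 at 6.5, Mcm3 at 4.86 and Mcm7 at 4.77. Most mitosis members were lower. Mki67, the proliferation marker, stood at 0.352 and Top2a, the topoisomerase that untangles sister chromatids, at 0.338 CPM per kilobase. The lowest was the kinetochore protein gene Cenpf at 0.0514. Bub1b at 1.86 and Tpx2 at 1.67 were the highest mitosis members, near Rrm1 at 1.90. Mitosis members had 2 to 242 reads per library, which limits the precision of each.

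**Figure D1:**
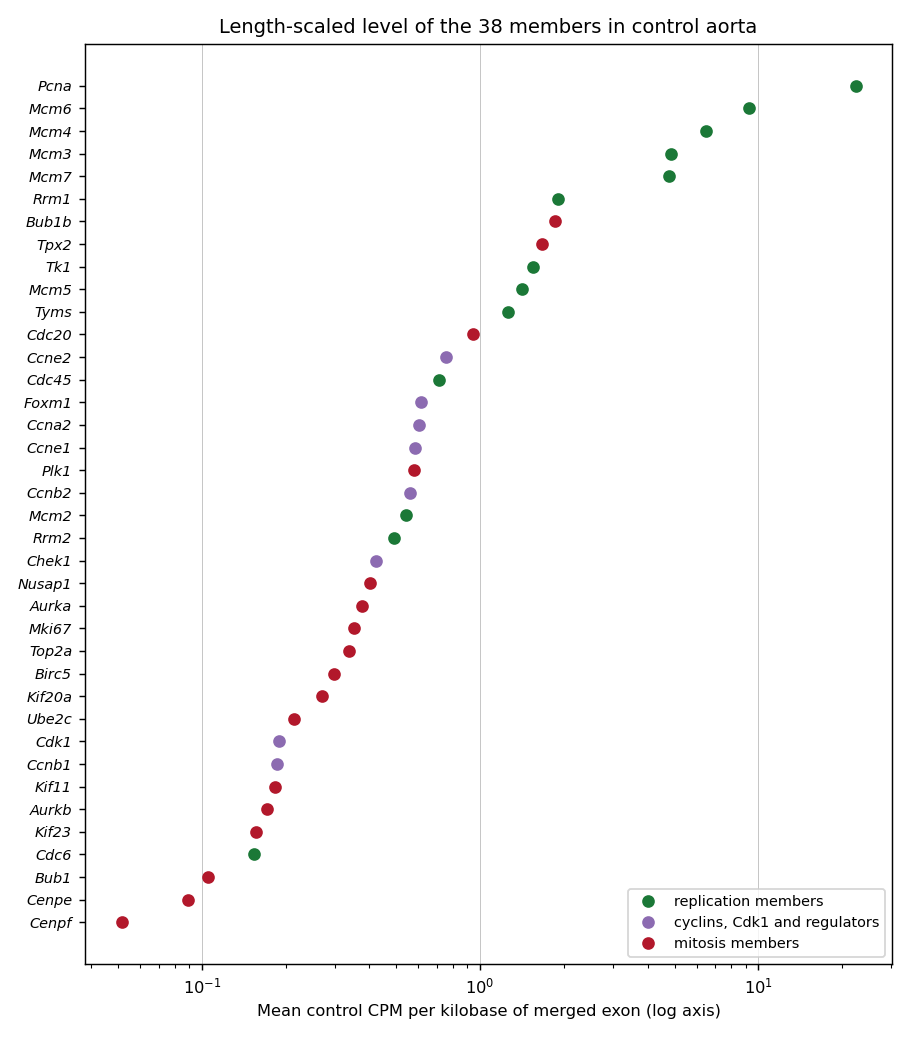
Mean level of each of the 38 members in 8 control libraries, in CPM per kilobase of merged exon on a log axis, coloured by role. Pcna is highest at 22.4 and Cenpf lowest at 0.0514, and replication members fill the top 6 places.

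Against control, no member passed the test in celecoxib aorta, and 1 did in rofecoxib aorta, the checkpoint kinase gene Chek1, which fell. Of the 37 members tested by edgeR, 0 passed at an adjusted p under 0.05 in celecoxib aorta, where 0.0344% of all 14528 genes tested passed (0.00688% higher and 0.0275% lower). That share is 5 genes, and leaving out 1 library gave 0 (without celecoxib replicate 7 or 8 or control replicate 3 or 4) to 34 (without celecoxib replicate 2). DESeq2 and limma voom also called 0 members there, against 107 of 25136 and 121 of 14528 genes. At an unadjusted p under 0.05, 8 members were called in celecoxib aorta, 4 above and 4 below control, which is 21.6% against 13.6% of all genes, of which 7.72% were higher and 5.83% lower. In rofecoxib aorta 1 of 37 members passed, lower, against 6.94% of all genes (3.88% higher and 3.06% lower; 358 to 1945 genes when 1 library was left out, against 1008 with all), and 12 members were under an unadjusted 0.05, 4 above and 8 below control, which is 32.4% against 28.2% of all genes, of which 16.4% were higher and 11.8% lower. In bulk tissue, fewer dividing cells and less RNA per cell cannot be told apart.

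**Figure D2:**
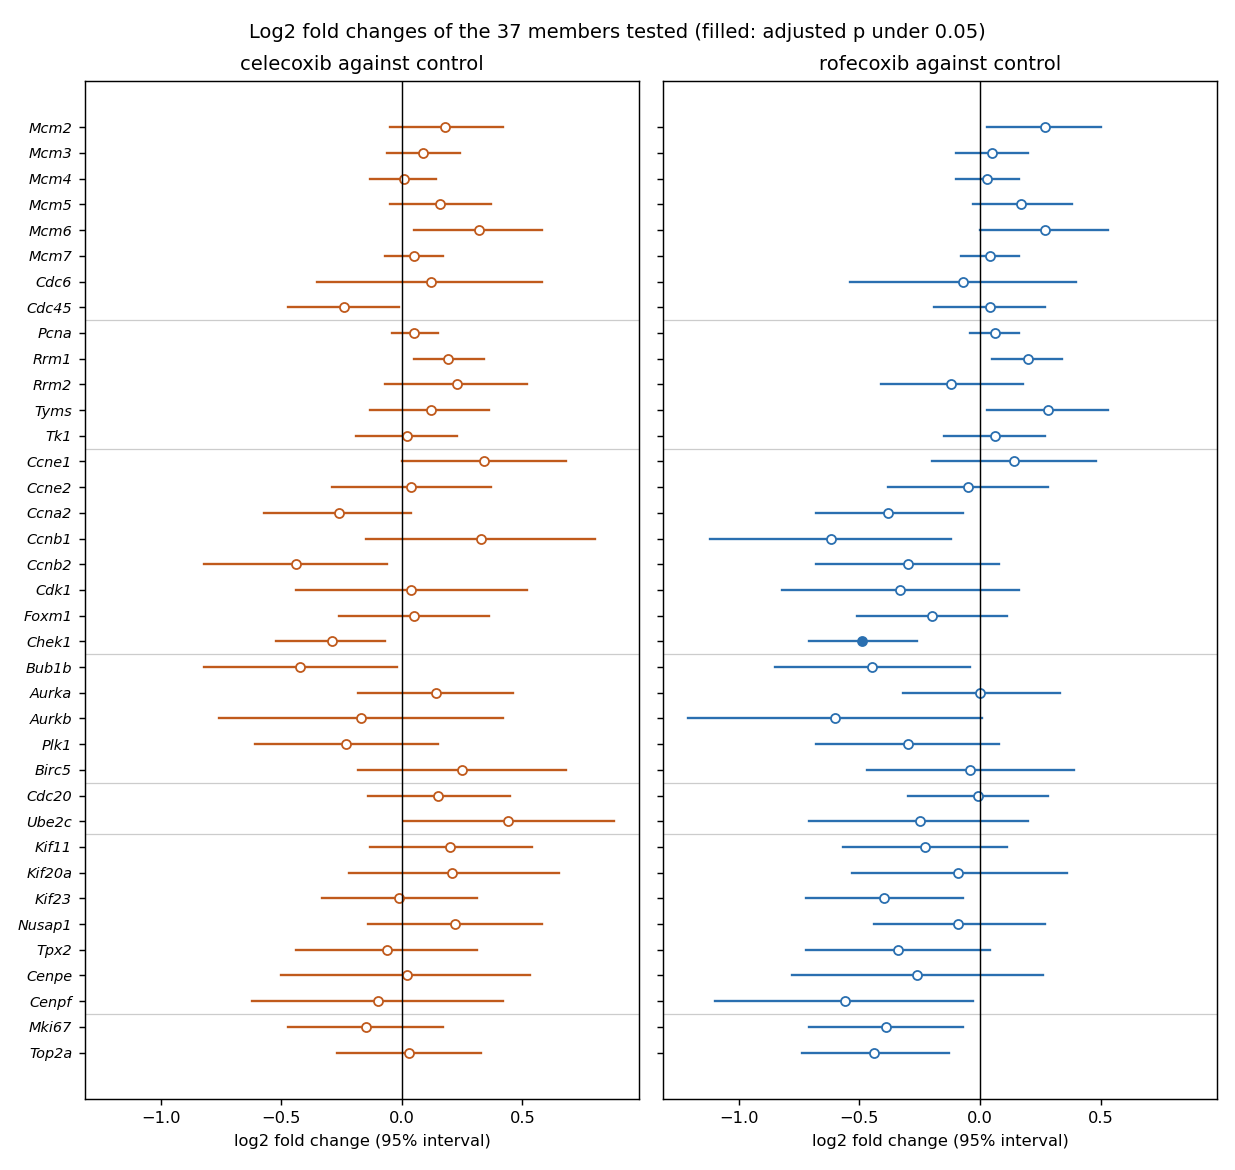
Log2 fold changes of the 37 members tested, with 95% intervals from edgeR, for celecoxib against control (left) and rofecoxib against control (right), ordered by role from replication at the top to mitosis at the bottom; filled points have an adjusted p under 0.05. Chek1 at -0.49 under rofecoxib is the one filled point, and 15 of 16 mitosis members lie below 0 under rofecoxib.

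Replication members sat slightly above control under both drugs, with no member passing the test. Of 13, 12 had a log2 fold change above 0 in celecoxib aorta, median 0.12, where 50.4% of all genes were above 0, 49.6% were below and the median of all genes was 0. In rofecoxib aorta 11 of 13 were above 0, median 0.06, where 54.9% of all genes were above 0 and their median was 0.02. Pcna and Mcm6 were the largest parts of the summed replication level, at means of 53.7 and 43.2 CPM in control libraries. That sum ran from 199 to 247 CPM with a median of 231 in celecoxib libraries. It ran from 217 to 244 with a median of 228 in rofecoxib and from 192 to 226 with a median of 211 in control libraries. The ranges overlap. In replicates 1 to 4 alone the celecoxib median was 0.04 with 8 of 13 above 0, against 0.15 with 11 of 13 in replicates 5 to 8; under rofecoxib these were 0.17 with 12 of 13 and 0.04 with 8 of 13. The labels do not name these replicate sets as batches.

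The helicase subunits Mcm2 to Mcm7 unwind DNA at the fork. Mcm6 had 43.6, 52.9 and 65.3 CPM as lowest, median and highest in celecoxib aorta, 36.9, 51.3 and 70.0 in rofecoxib aorta, and 36.6, 42.2 and 52.8 in control aorta. All 8 celecoxib libraries lay above the control median and 4 above every control, and the log2 fold changes were 0.32 (SE 0.13, edgeR adjusted p = 0.289) for celecoxib and 0.27 (SE 0.13, adjusted p = 0.176) for rofecoxib. Mcm2 had 3.00, 4.07 and 5.74 CPM in celecoxib, 3.95, 4.35 and 5.57 in rofecoxib and 2.98, 3.66 and 4.59 in control aorta. All 8 rofecoxib libraries exceeded the control median for Mcm2, where the log2 fold change reached 0.27 (SE 0.11, edgeR adjusted p = 0.134), and the celecoxib value was 0.18 (SE 0.12, adjusted p = 0.483). Mcm5 had means of 6.29 CPM in celecoxib, 6.34 in rofecoxib and 5.62 in control aorta, with log2 fold changes of 0.16 and 0.17 (edgeR adjusted p = 0.479 and 0.253). Mcm3, Mcm4 and Mcm7 were within 0.09 of 0 on the log2 scale under both drugs. Cdc45, the helicase's activator, was 2.11 ± 0.334 CPM in celecoxib and 2.5 ± 0.324 in control aorta, log2 fold change -0.24 with 5 of 8 celecoxib libraries below every control (edgeR adjusted p = 0.344), and Cdc6, which loads the helicase, was at 0.328 to 1.11 CPM with log2 fold changes of 0.12 for celecoxib and -0.07 for rofecoxib.

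Among the genes of DNA synthesis and nucleotide supply, Rrm1, the large subunit of ribonucleotide reductase, had the smallest p. Rrm1 stood at 21.1, 24.3 and 26.6 CPM in celecoxib aorta, 21.3, 24.3 and 25.9 in rofecoxib aorta, and 17.7, 20.6 and 25.8 in control aorta. All 8 libraries of each drug lay above the control median, and 1 of each drug lay above every control. The log2 fold changes were 0.19 (SE 0.07, edgeR adjusted p = 0.248) for celecoxib and 0.20 (SE 0.07, adjusted p = 0.0789) for rofecoxib. Rrm2, the small subunit that is made anew in S phase, had means of 1.59, 1.25 and 1.36 CPM in celecoxib, rofecoxib and control aorta, with log2 fold changes of 0.23 for celecoxib and -0.12 for rofecoxib against control. Pcna had 55.7 ± 4.21 CPM in celecoxib, 56.0 ± 3.42 in rofecoxib and 53.7 ± 2.16 in control aorta (SD, n = 8 each), log2 fold changes 0.05 and 0.06 with 95% intervals of -0.04 to 0.15 and -0.04 to 0.16. Tyms, thymidylate synthase, had a mean of 9.29 CPM in rofecoxib and 7.66 in control aorta, log2 fold change 0.28 (edgeR adjusted p = 0.129), and 8.30 CPM in celecoxib aorta. Tk1, thymidine kinase, was within 0.06 of 0 under both drugs.

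Chek1 (ENSMUSG00000032113, chr9:36515865-36534852 on mm9, as the table gives it), the kinase that holds the cycle when replication stalls, fell in rofecoxib aorta. Chek1 had 1.11, 1.34 and 1.8 CPM as lowest, median and highest in rofecoxib libraries, 1.37, 1.57 and 1.90 in celecoxib libraries and 1.79, 1.87 and 2.4 in control libraries. In 7 of the 8 rofecoxib libraries Chek1 lay below every control, as it did in 6 of the 8 celecoxib libraries. The log2 fold change was -0.49 for rofecoxib (SE 0.11, 95% interval -0.71 to -0.26, edgeR adjusted p = 0.0153). For celecoxib it was -0.29 (SE 0.11, 95% interval -0.52 to -0.07, edgeR adjusted p = 0.26), and celecoxib against rofecoxib gave 0.19 (95% interval -0.03 to 0.42, edgeR adjusted p = 0.368), so a difference between the drugs was not shown. The counts behind these values are 24 to 51 reads per library. The call held when each of the 24 libraries was left out, with log2 fold changes of -0.55 to -0.44, but adjusting for the macrophage markers (-0.43, edgeR adjusted p = 0.0735) or for brown adipocyte and skeletal muscle markers (-0.44, adjusted p = 0.0702) ended it. The fold itself lay between -0.54 and -0.42 in all 15 alternative fits. The call was also lost with general adipocyte (-0.44, edgeR adjusted p = 0.123) or smooth muscle (-0.43, adjusted p = 0.162) markers in the fit, in replicates 1 to 4 alone (-0.54, adjusted p = 0.144) and in replicates 5 to 8 alone (-0.45, adjusted p = 0.174).

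Of the 8 cyclins, Cdk1 and regulators, Chek1 included, 7 were below 0 in rofecoxib aorta, median log2 fold change -0.32, against 45.1% of all genes, and 5 were above 0 in celecoxib aorta, median 0.04, against 50.4% of all genes. In replicates 1 to 4 alone the medians were -0.15 for rofecoxib and 0.11 for celecoxib, while replicates 5 to 8 gave -0.44 for rofecoxib and -0.18 for celecoxib, so the celecoxib median turned sign. Ccnb1, cyclin B1, which drives entry into mitosis, had 0.224, 0.512 and 0.709 CPM in rofecoxib, 0.332, 1.04 and 1.31 in celecoxib and 0.615, 0.712 and 1.07 in control aorta. All 8 rofecoxib libraries lay below the control median and 5 below every control, and the rofecoxib log2 fold change was -0.62 (SE 0.24, edgeR adjusted p = 0.101), while that for celecoxib was 0.33 (SE 0.23, edgeR adjusted p = 0.54). Ccna2, cyclin A2, which acts in S phase and G2, had means of 1.90 CPM in rofecoxib and 2.47 in control aorta, log2 fold change -0.38 (edgeR adjusted p = 0.104), with all 8 rofecoxib libraries below the control median. Cdk1, the kinase partner of cyclin B, had means of 0.743 CPM in rofecoxib, 0.965 in celecoxib and 0.937 in control aorta, and the rofecoxib log2 fold change was -0.33 (SE 0.24). Foxm1, a transcription factor of mitotic genes, gave -0.20 (SE 0.15) for rofecoxib and 0.05 for celecoxib. Ccne1, cyclin E1, which starts S phase, had means of 1.97 CPM in celecoxib, 1.71 in rofecoxib and 1.56 in control aorta, log2 fold change 0.34 (SE 0.16, edgeR adjusted p = 0.367) for celecoxib and 0.14 for rofecoxib; Ccne2 was within 0.05 of 0 under both, but in replicates 1 to 4 alone it was 0.49 for celecoxib and 0.29 for rofecoxib, while replicates 5 to 8 gave -0.41 for celecoxib and -0.37 for rofecoxib. Ccnb2, cyclin B2, lay below the control median in all 8 celecoxib libraries, log2 fold change -0.44 (edgeR adjusted p = 0.309), and -0.30 in rofecoxib aorta.

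**Figure D3:**
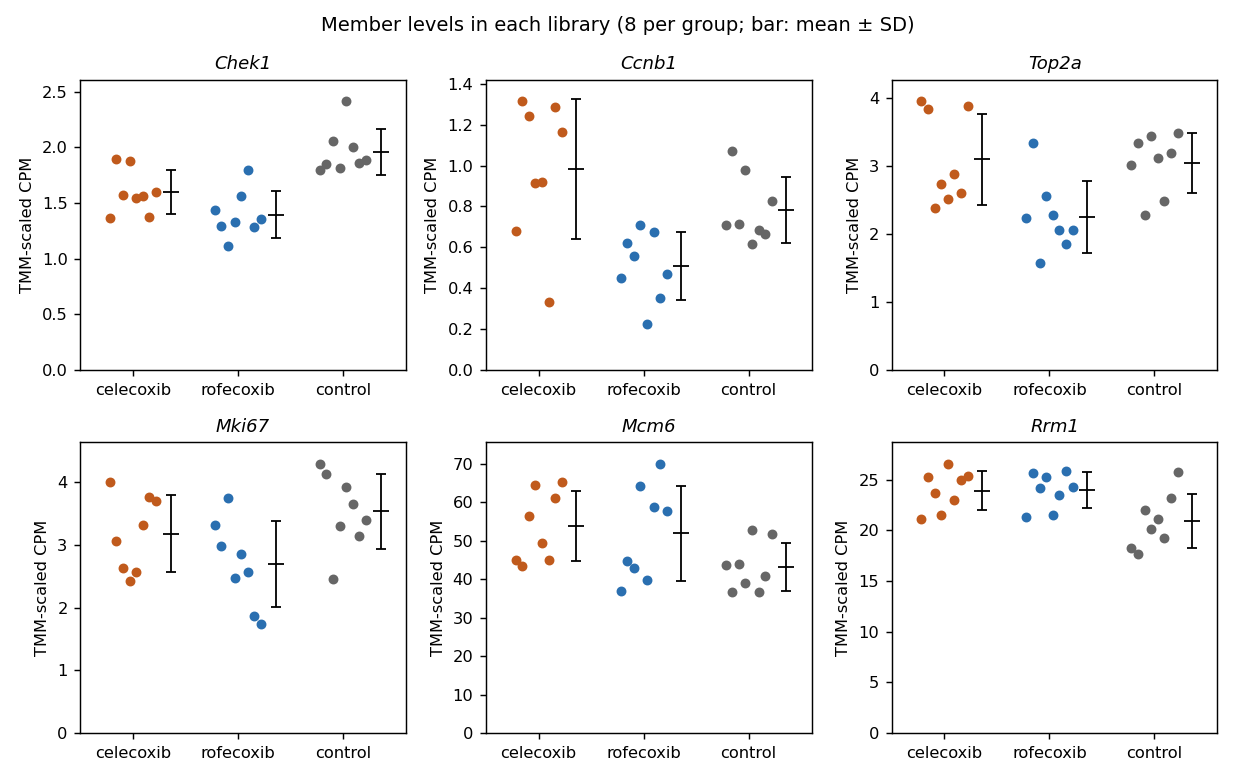
Levels of 6 members in each library, in TMM-scaled CPM, with the mean and SD beside each group of 8; celecoxib, rofecoxib and control run left to right. Chek1 is at 1.11 to 1.8 in rofecoxib and 1.79 to 2.4 in control libraries, and Top2a is below every control in 6 of 8 rofecoxib libraries.

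Of the 16 mitosis members tested, 15 had a log2 fold change below 0 in rofecoxib aorta, median log2 fold change -0.28, where 45.1% of all genes were below 0 and the median of all genes was 0.02. None passed the test; 5 were under an unadjusted p of 0.05, all lower, where 11.8% of all genes were lower at that p. In celecoxib aorta 9 of 16 were above 0 and 7 below, median 0.02. The summed level of the 17 mitosis members was 23.0 to 34.5 CPM with a median of 28.1 in rofecoxib libraries, 28.7 to 39.3 with a median of 35.4 in celecoxib libraries and 29.8 to 40.7 with a median of 36.2 in control libraries. The ranges overlap. Bub1b and Tpx2 were the largest parts of this sum. In control libraries their means were 7.96 and 7.79 CPM, where the sum averaged 35.8 CPM. The highest celecoxib sum was in replicate 5, the celecoxib library highest for Bub1b. Aurka, the spindle pole kinase gene, lay at 0 in rofecoxib aorta. With library size alone as the scaling, which shifts the median of all genes to 0.08, 13 of 16 were below 0, median -0.22. In replicates 1 to 4 alone 12 of 16 were below 0, median -0.23, and in replicates 5 to 8 alone 14 of 16, median -0.45.

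Top2a, the topoisomerase of mitotic chromosomes, had 1.58, 2.16 and 3.34 CPM in rofecoxib, 2.39, 2.82 and 3.96 in celecoxib and 2.28, 3.16 and 3.49 in control aorta. In 6 of 8 rofecoxib libraries Top2a lay below every control. The log2 fold change was -0.44 (SE 0.15, 95% interval -0.74 to -0.13, edgeR adjusted p = 0.0658) for rofecoxib and 0.03 (SE 0.15, 95% interval -0.27 to 0.33) for celecoxib. DESeq2 and limma voom called Top2a in rofecoxib aorta, and the main edgeR fit did not. EdgeR called it with the replicate block, without rofecoxib replicate 2 and without control replicate 3. It stayed uncalled in 12 of 15 alternative fits and in 22 of 24 that left out 1 library. Mki67, the Ki-67 protein gene that marks cycling cells, had 1.73, 2.71 and 3.76 CPM in rofecoxib, 2.43, 3.19 and 4.00 in celecoxib and 2.46, 3.53 and 4.30 in control aorta. For Mki67, 7 of 8 rofecoxib libraries lay below the control median and 2 below every control, with log2 fold changes of -0.39 (SE 0.15, edgeR adjusted p = 0.102) for rofecoxib and -0.15 (SE 0.15, adjusted p = 0.672) for celecoxib.

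Among kinases and checkpoint genes, Bub1b, whose BubR1 protein holds anaphase until kinetochores attach, had means of 5.84 CPM in rofecoxib, 5.96 in celecoxib and 7.96 in control aorta, log2 fold changes -0.45 for rofecoxib and -0.42 for celecoxib (edgeR adjusted p = 0.138 and 0.349). Plk1, polo-like kinase, gave -0.30 in rofecoxib and -0.23 in celecoxib aorta. Aurkb, the chromosomal passenger kinase, gave -0.60 with an interval of -1.21 to 0.01 in rofecoxib aorta, at 2 to 17 reads per library. Birc5, survivin, was -0.04 in rofecoxib and 0.25 in celecoxib aorta. Bub1, untested by edgeR's default filter, had 0.0886, 0.158 and 0.404 CPM in rofecoxib, 0.143, 0.283 and 0.474 in celecoxib and 0.191, 0.503 and 0.615 in control aorta; 5 of 8 rofecoxib libraries lay below every control, at 2 to 13 reads per library. Bub1 was called lower in rofecoxib aorta where the filter was dropped and by DESeq2.

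The spindle and kinetochore genes all had a log2 fold change below 0 in rofecoxib aorta, 7 of 7, median -0.26. Of all genes 45.1% were below 0, and 0 of the 7 passed the test. Kif23, a kinesin of the central spindle, had means of 0.941 CPM in rofecoxib, 1.23 in celecoxib and 1.24 in control aorta, log2 fold change -0.40 (SE 0.16, edgeR adjusted p = 0.104) for rofecoxib and -0.01 for celecoxib, with all 8 rofecoxib libraries below the control median. Cenpf, a kinetochore protein gene, was -0.56 (edgeR adjusted p = 0.155) in rofecoxib aorta. Kif11, the kinesin that pushes spindle poles apart, was -0.23 in rofecoxib and 0.20 in celecoxib aorta, Kif20a, a kinesin of cytokinesis, -0.09 and 0.21, Tpx2, which activates Aurora A, -0.34 and -0.06, and Cenpe, a kinetochore kinesin, -0.26 and 0.02. Nusap1, which bundles spindle microtubules, was -0.09 in rofecoxib and 0.22 in celecoxib aorta. Ube2c, the ubiquitin-conjugating enzyme of anaphase, had means of 0.760 CPM in celecoxib, 0.468 in rofecoxib and 0.559 in control aorta, with log2 fold changes of 0.44 (SE 0.21, edgeR adjusted p = 0.364) for celecoxib and -0.25 (SE 0.22, adjusted p = 0.453) for rofecoxib; Cdc20, the anaphase activator, was 0.15 and -0.01.

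**Figure D4:**
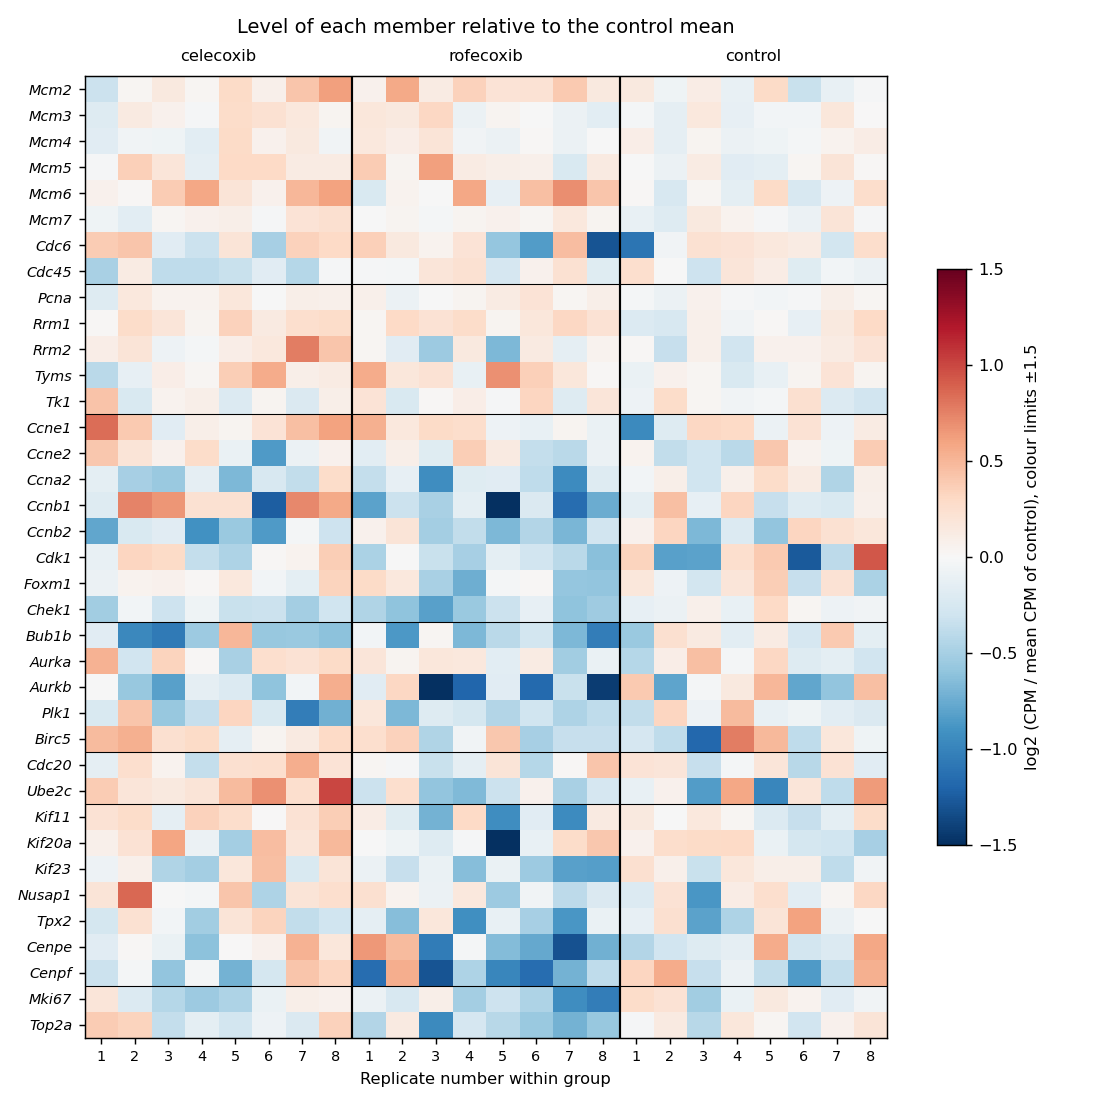
Log2 ratio of the level in each library to the mean of the control libraries, for the 37 members by role (rows) and the 24 libraries by group and replicate (columns); colour limits are ±1.5, so values beyond them share the end colour. Against the median of each member over all 24 libraries, which is not the reference of the colours, replicate 7 of rofecoxib is higher for 1 of 16 mitosis members.

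Since the drug groups share their controls, celecoxib was also tested against rofecoxib, at doses that differ. Ccnb1 (ENSMUSG00000041431) was the 1 of 37 members called, against 4.89% of all genes (0.564% higher and 4.32% lower), and it was higher in celecoxib aorta with a log2 fold change of 0.95 (SE 0.24, 95% interval 0.45 to 1.44, edgeR adjusted p = 0.0372). In 6 of 8 celecoxib libraries there was more Ccnb1 than in every rofecoxib library, at 5 to 29 reads per library. The call was lost without celecoxib replicate 2, 3, 4 or 5 or rofecoxib replicate 1, 2, 3, 4 or 7, with an adjusted p of up to 0.0884, and under 10 of 14 alternative fits. At an unadjusted p under 0.05, 6 members were higher and 1 lower, against 23% of all genes (7.94% higher and 15.1% lower). The count over all genes, 710, fell to 0 without celecoxib replicate 2 or 3 or rofecoxib replicate 2, 3 or 7. All 16 mitosis members tested were above 0, median 0.29, where 51.7% of all genes were above 0 and 48.3% below. With library size alone 15 of 16 were above 0, 13 of 16 were in a fit of replicates 1 to 4 (median 0.18), and 16 of 16 were in a fit of replicates 5 to 8 (median 0.48). Top2a gave 0.46 (95% interval 0.16 to 0.77, edgeR adjusted p = 0.0615) and Ube2c 0.70 (95% interval 0.25 to 1.14, adjusted p = 0.057). Ube2c overlaps Tnnc2 and Gm11457, which have 0.965 times its reads. Of the 13 replication members 5 were above 0, median -0.01; the interval for Mcm6, for example, was -0.22 to 0.32, so the data do not show that the drugs act alike.

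Further cell cycle genes were described from separate lists. Of 46 other replication genes tested, 39 were above 0 in rofecoxib aorta (median 0.13), against 54.9% of all genes, and 38 in celecoxib aorta (median 0.12), against 50.4%. Under rofecoxib 1 of the 46 passed, against 6.94% of all genes. Gmnn, geminin, which blocks relicensing of origins, rose in rofecoxib aorta to 2.85 ± 0.925 CPM, against 1.63 ± 0.318 in control aorta (SD, n = 8 each), log2 fold change 0.81 (SE 0.17, edgeR adjusted p = 0.0118), with 6 of 8 rofecoxib libraries above every control. Its call held without each library but was lost in 6 of 15 alternative fits. Of 47 other mitosis genes tested, 31 were below 0 in rofecoxib aorta, median -0.10, against 45.1% of all genes, and 2 passed, against 6.94%. In celecoxib aorta 32 were above 0, median 0.09, against 50.4% of all genes. Iqgap3, a scaffold of proliferating cells, fell to 0.93 ± 0.211 CPM in rofecoxib aorta, against 1.58 ± 0.378 in control aorta, log2 fold change -0.76 (SE 0.16, edgeR adjusted p = 0.0104), and H2afz, a histone variant also used outside mitosis, rose by 0.27 (adjusted p = 0.0222). The Iqgap3 call was lost in 4 of 15 alternatives and H2afz's in 5, H2afz being at 0.13 in replicates 1 to 4 and at 0.40 in replicates 5 to 8. The H2afz call was also lost without rofecoxib replicate 7, and the Iqgap3 call held without each library. In celecoxib against rofecoxib aorta 2 of the 47 other mitosis genes and 0 of the 46 other replication genes passed. Of all genes 0.564% were called higher and 4.32% lower in that comparison. There Iqgap3 was higher by 0.68 (edgeR adjusted p = 0.0369) and Hmmr, a spindle protein gene that overlaps the more abundant Nudcd2, by 0.84 (adjusted p = 0.0485). The Iqgap3 call held in 16 of the 24 fits that left out 1 library and was lost in 9 of 15 alternatives. The Hmmr call held in 4 of the 24 and was lost in 11 of 14 alternatives. In celecoxib against control aorta 0 of either list passed, the smallest p being for Rpa1, a single-strand DNA binding subunit, at 0.32 (edgeR adjusted p = 0.117).

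The list of cell cycle inhibitors also holds related genes such as Mdm2. Of its 17 genes tested, 3 fell and 0 rose in rofecoxib aorta, where 3.06% of all genes were called lower and 3.88% higher. Cdkn1a, the p21 inhibitor of cyclin-dependent kinases, fell to 115 ± 27.9 CPM in rofecoxib aorta, against 215 ± 64.9 in control aorta, log2 fold change -0.90 (SE 0.25, edgeR adjusted p = 0.0313). Btg2, an antiproliferative p53 target, fell by 0.70 on the log2 scale (SE 0.15, edgeR adjusted p = 0.0121), with 7 of 8 rofecoxib libraries below every control, and Ccng2, cyclin G2, fell by 0.33 (adjusted p = 0.03). The Cdkn1a call held in 17 of 24 fits that left out 1 library and 9 of 15 alternatives, Ccng2's in 21 and 8, and Btg2's in 24 and 10. Cdkn1a was lost without rofecoxib replicate 4, 6 or 7 or control replicate 1, 2, 6 or 7, and Ccng2 without rofecoxib replicate 2 or control replicate 2 or 7. In celecoxib aorta Btg2 gave -0.51 (edgeR adjusted p = 0.189), also with 7 of 8 libraries below every control. Cdkn1a gave -0.57 there (edgeR adjusted p = 0.313), with 4 of 8 libraries below every control, against 6 of 8 under rofecoxib. Under celecoxib 0 of 17 passed. Celecoxib against rofecoxib gave 0.19 for Btg2 and 0.33 for Cdkn1a (edgeR adjusted p = 0.5 and 0.457), so a difference between the drugs was not shown. Of 19 E2F, RB and DREAM regulators and 12 G1 cyclins and kinases tested, 0 passed in any comparison by edgeR. Of all genes 0.0344% passed under celecoxib, 6.94% under rofecoxib and 4.89% between the drugs. Mybl2, which encodes B-MYB, was -0.51 in rofecoxib aorta (edgeR adjusted p = 0.0729) and Ccnh, a subunit of the CDK-activating kinase, 0.23 (adjusted p = 0.0529). In celecoxib against rofecoxib aorta 1 of the 17 genes tested on the inhibitor list, Cdkn2c, was lower (log2 fold change -0.64, edgeR adjusted p = 0.0427). Of all genes 4.32% were called lower and 0.564% higher in that comparison. The Cdkn2c call held in 9 of the 24 fits that left out 1 library and was lost in 8 of 15 alternatives. The Cdkn2c fold was -0.96 in replicates 1 to 4 alone and -0.07 with general adipocyte markers in the fit.

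**Figure D5:**
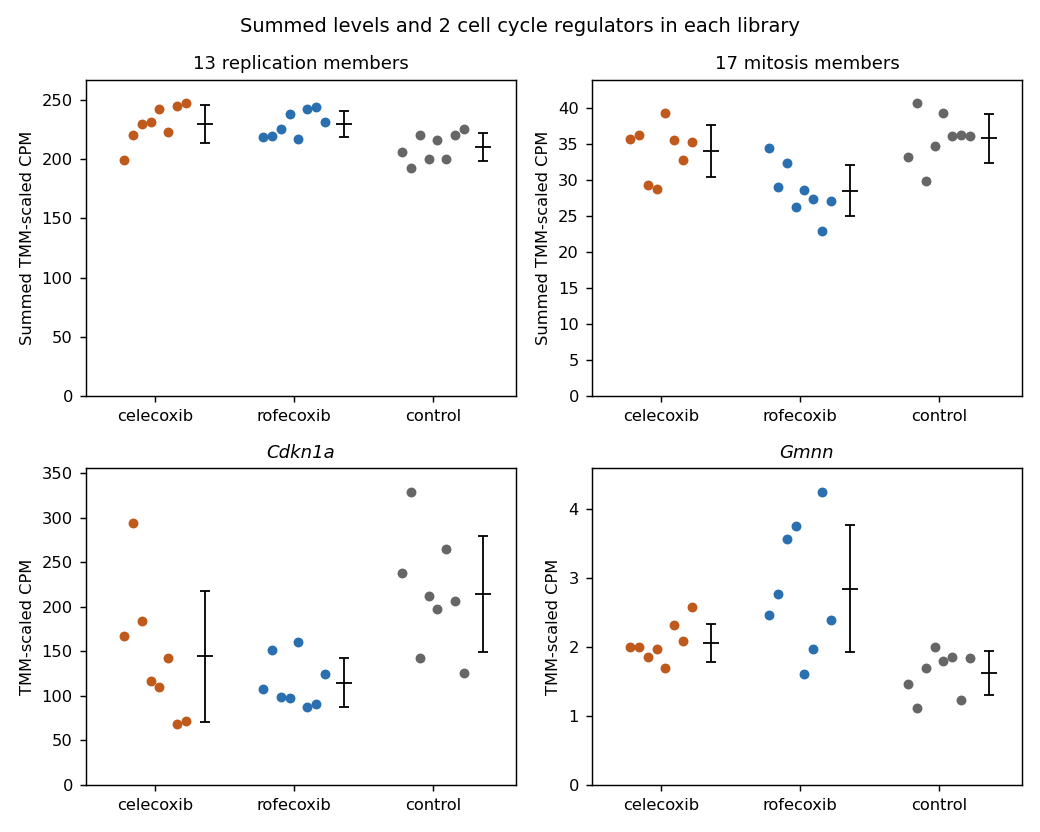
Summed CPM of the 13 replication and 17 mitosis members, and CPM of Cdkn1a and Gmnn, in each of the 8 libraries per group with mean and SD beside them. Summed mitosis levels are 23.0 to 34.5 in rofecoxib and 29.8 to 40.7 in control libraries, with Bub1b and Tpx2 the largest parts. Cdkn1a averages 115 in rofecoxib and 215 in control libraries.

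Several lists of cell type markers lay to one side of 0 in rofecoxib aorta. There 54.9% of all genes were above 0, 45.1% were below and 6.94% passed the test. All 13 macrophage markers tested were above 0 in rofecoxib aorta, median 0.34, with 1 passing. In celecoxib aorta all 13 were below 0, median -0.20, against 49.6% of all genes. Their summed level was 195 to 508 CPM in rofecoxib, 158 to 328 in celecoxib and 241 to 383 in control libraries. The general adipocyte markers summed to 2260 to 6930 CPM in rofecoxib, 2010 to 4040 in celecoxib and 2260 to 6170 in control libraries, and 11 of 12 were above 0 in rofecoxib aorta, median 0.78, with 4 passing. All 10 smooth muscle markers were below 0 in rofecoxib aorta, median -0.17, with 1 passing. All 8 neutrophil markers and all 9 Schwann cell markers tested, and 11 of 12 brown adipocyte markers, were above 0 in rofecoxib aorta, with 0, 1 and 2 passing. All 10 endothelial markers were above 0, median 0.23, and Tek and Kdr, receptor genes of endothelial cells, rose by 0.49 and 1.09 (edgeR adjusted p = 0.0174 and 0.0285). All 6 erythroid markers tested were above 0, with 1 passing. Of 10 fibroblast markers, 7 were above 0 and the collagen genes Col1a1 and Col1a2 fell, with log2 fold changes of -0.49 and -0.45 (edgeR adjusted p = 0.0334 and 0.0133). Of 5 skeletal muscle markers tested, 4 were below 0 and 0 passed. Immature myeloid markers summed to 0.14 to 1.34 CPM and 0 of 8 passed the filter, while 1 of 12 lymphocyte markers did. The part of these cell types in the members' values was not tested.

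There are 8 members that overlap a gene with more reads in the mm9 coordinates of the table, and since strand handling is not known, reads of the pair may not be separable: Mcm7, Cdc45, Ccne2, Ccna2, Foxm1, Aurka, Cdc20 and Kif20a. Ube2c, which overlaps Tnnc2 and Gm11457, and Tk1, which overlaps Afmid, were kept. The overlapping genes had 0.965 times the reads of Ube2c and 0.913 times those of Tk1. Tnnc2 is also on the skeletal muscle list. Without the 8 members named above, 13 of 13 mitosis members tested were below 0 in rofecoxib aorta, median -0.34, against 45.1% of all genes. In celecoxib aorta 6 of those 13 were above 0 and 7 below, median -0.01. Replication members were above 0 in 11 of 11 under celecoxib, median 0.12, against 50.4% of all genes. Under rofecoxib 9 of 11 were, median 0.06, against 54.9%. The members left out include Aurka, at 0 under rofecoxib, and Cdc45, at -0.24 under celecoxib.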

How the data were processed

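RNA sequencing of thoracic aorta gave 24 libraries, 8 per diet group, which the labels call biological replicates; their construction was spread over 3 days, and which library was made when is not known here. A table gives, for every gene and library, the raw read counts that the authors deposited; they were used unchanged. Per the submitters' processing notes, mm9 was the build, STAR 2.5.1b and CASAVA 1.8.1 the tools; which counter, annotation and strand setting were used is not given in the sources used here. Library totals lay between 21668798 and 21700121 reads, closer than sequencing usually leaves them; why they are so alike is not known, so the original depth of each library is unknown. No pair of libraries within a group agreed within sampling noise.

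Tests used edgeR 4.0.16 in R 4.3.3, applying TMM scaling and its default expression filter, which left 14528 genes. All 24 libraries entered a quasi-likelihood fit of 1 mean per group. A gene was called below 0.05 after two-sided p-values were adjusted by Benjamini-Hochberg across every tested gene. CPM values are TMM-scaled, with SD over 8 libraries. Exon lengths came from GENCODE M21 on GRCm38 and were used for length only; promoter windows and sequences came from RefSeq on GRCm38.p6.

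The members and the 17 further gene lists were chosen with earlier results of these data known. The fullest description was planned for members that passed, 10 fixed members and the member of each role with the smallest p under each drug. Not all of these carry an SE, interval and p-value here. Of further lists, called genes or up to 2 with the smallest p were to be named, and some are summarised as counts. Replicate numbers were checked as possible pairs. In each comparison 2 of 8 libraries correlated best with their own number, and no block was used in the main fit. Whether libraries of like number shared processing was not tested. Alternatives were other scalings and filters, DESeq2 1.42.0, limma 3.58.1 voom, only the groups compared, the replicate block, replicates 1 to 4 or 5 to 8 alone, leaving out each library, and marker levels as covariates; the general adipocyte and smooth muscle covariates were added after seeing the data.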

Additional observations from a re-analysis of the deposited data

Results flagged for a closer look

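In 5 of the 114 sets of 8 libraries examined, 1 library stood far from the rest of its group; chance gives about 1 such set in 20. Tk1 was highest in celecoxib replicate 1 at 10.8 CPM, with the next celecoxib library at 8.58. Bub1b was highest in celecoxib replicate 5 at 11.3 CPM, with the next at 7.1. Kif20a was lowest in rofecoxib replicate 5 at 0.313 CPM, from 7 reads, with the next rofecoxib library at 1.02. Cenpf was highest in rofecoxib replicate 2 at 1.16 CPM, from 26 reads, with the next at 0.609; without that library Cenpf was called lower under rofecoxib by edgeR (adjusted p = 0.047). Chek1 was highest in control replicate 5 at 2.4 CPM, with the next control at 2.06; the Chek1 call under rofecoxib held without it.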

How the results depend on the processing

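For celecoxib against control 0 members were called under all 15 alternatives and all 24 fits that left out 1 library. For rofecoxib against control 1 of 37 members was called, against 1008 of 14528 genes. Library size alone gave 2 of 37 (Chek1 and Rrm1), against 1416 of 14528 genes. Dropping the filter gave 2 of 38 (Bub1 and Chek1), against 557 of 25136. DESeq2 called 3 of 38 (Bub1, Chek1 and Top2a), against 1796 of 25136 genes. By limma voom it was 5 of 37 (Ccna2, Chek1, Mki67, Rrm1 and Top2a), against 2448 of 14528. It was 0 in replicates 1 to 4 alone, in replicates 5 to 8 alone, and with brown adipocyte and skeletal muscle, macrophage, general adipocyte or smooth muscle levels as covariates; those 2 subsets have fewer libraries, and otherwise the cause was not tested. Leaving out 1 library gave 1 to 3: 3 without rofecoxib replicate 2 (Cenpf, Chek1 and Top2a) and 2 without control replicate 3 or control replicate 8. For celecoxib against rofecoxib 1 of 37 members was called, against 710 of 14528 genes. DESeq2 called 2 of 38 (Ccnb1 and Top2a), against 1439 of 25136 genes. No member was called without a filter, by limma voom, with only the groups compared or with each covariate. The number was also 0 in replicates 1 to 4 or 5 to 8 alone. It was 0 with a mean of at least 1 CPM, a filter that removed Ccnb1 itself. Leaving out 1 library gave 0 to 2 members. Without celecoxib replicate 2 the genes called overall numbered 0, against 710 with it. Same-numbered libraries did not deviate together throughout, with correlations of -0.30 to 0.56 for rofecoxib against control. In each comparison 2 of 8 libraries correlated best with their own number. With the replicate block 2 of 37 members were called for rofecoxib against control (Chek1 and Top2a), against 1187 of 14528 genes. The block gave 0 members for celecoxib against control and 0 for celecoxib against rofecoxib. With only the bases before the start, promoters with the homology region core numbered 11 of 31 in place of 16 and with the E2F core 9 in place of 11. Over all genes, rofecoxib against control gave 1008 calls, 55.9% of them higher, against 1416 with library size alone (78.1% higher), 1000 with RLE scaling (49.8% higher), 1796 by DESeq2, 2448 by limma voom, 1735 with the replicate sets as a term, 557 without a filter, 42 in replicates 1 to 4 alone, 401 in replicates 5 to 8 alone, and 33 to 120 with the marker covariates. Without 1 library it ran from 358 (control replicate 2) to 1945 (rofecoxib replicate 8), and it was over 1.5 times lower or higher also without rofecoxib replicate 2, 4 or 7 or control replicate 1, 4, 5, 6 or 7. Celecoxib against control gave 5, against 107 by DESeq2, 121 by limma voom, 174 with the replicate sets as a term, 313 in replicates 5 to 8 alone and 0 with brown adipocyte and skeletal muscle covariates; without 1 library it ran from 0 (celecoxib replicate 7 or 8, control replicate 3 or 4) to 34 (celecoxib replicate 2). Celecoxib against rofecoxib gave 710, against 1439 by DESeq2, 2073 in replicates 1 to 4 alone, and 0 without a filter, with only the groups compared, with the replicate block, in replicates 5 to 8 alone and with each covariate. No call reversed its sign under the alternatives run. Low counts limit the precision: counting error alone is 24.5% of the mean for Ccnb1, a cyclin, and 12.4% for Top2a, a mitosis member, in control libraries.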

Other observations

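The libraries also differ in how the roles combine. Rofecoxib replicate 7 lay above the median over all libraries for 1 of 16 mitosis members and for 7 of 13 replication members, and its Gmnn level was 4.25 CPM, the highest of the 24 libraries. Celecoxib replicate 8 lay above that median for 13 of 16 mitosis members and 12 of 13 replication members. Celecoxib replicate 1 was the lowest of all libraries for 5 of 13 replication members, while it lay above the median for 13 of 16 mitosis members.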
